A study of Mus musculus with 2 samples.

Results

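Epiregulin (Ereg) and 8 further genes of epidermal growth factor (EGF) family signalling were followed from primary to cultured costal-cartilage-derived stem cells (CDSCs) of the mouse. The 9 genes were the ligands Ereg, Areg, Hbegf, Tgfa, Btc and Nrg1, the receptors Egfr and Erbb2, and the receptor inhibitor Errfi1. They were found by gene symbol among 21828 symbols. Nrg1 had an additional feature row that held no count in either library, so 10 of 21849 rows belonged to them. Ereg was selected on its rise in CPM from the primary to the cultured library in these same data, so its values are a description and carry no test, and the other 8 genes were listed with the results of these libraries known.

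The primary group was 1 library of cells from the rib cartilage of newborn CD45.1 or ZsGreen C57BL/6J mice, digested with enzymes and sorted for cells without CD45, a blood cell protein, and with CD51, an integrin. The cultured group was 1 library of CDSCs expanded in medium with fetal bovine serum and taken at passage 2 to 3. Both libraries carried the tissue label bone marrow. How many animals were pooled was not given in the sources used here.

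EGF family ligands are made as membrane proteins and are released by proteases such as ADAM10 and ADAM17, after which they bind ErbB receptors on the same or neighbouring cells. EREG, HBEGF and BTC bind EGFR and ERBB4, AREG and TGFA bind EGFR, and NRG1 binds ERBB3 and ERBB4, while ERBB2 has no known ligand and serves as the partner of the others. Receptor pairs activate the RAS-ERK cascade, and ERRFI1, also called MIG6, is an induced inhibitor that binds the EGFR kinase and closes a feedback loop. In cartilage this pathway is known for its part in growth plate remodelling and in the upkeep of joint surfaces.

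A barcode was kept as a cell with at least 500 genes, at least 1000 unique molecular identifiers (UMIs, each 1 captured transcript) and at most 10% mitochondrial UMIs. This left 11746 of 11896 primary barcodes with 137148874 UMIs, and 5338 of 10798 cultured barcodes with 330129909 UMIs. The median depth was 10026.5 UMIs per primary cell and 56864.5 per cultured cell. Of the kept barcodes, 15 occurred in both libraries. The chondrocyte markers were abundant in the primary library, at 90826 CPM in sum (CPM is a gene's share of the UMIs of its library, put on a common scale). In culture this sum was 1083 CPM, and each of the 13 markers was past 4-fold lower. CD51 (Itgav) was at 92.5 and 109 CPM, and CD45 (Ptprc) at 0.620 and 0.345 CPM. The libraries also came from different animals, since ZsGreen had 60957 primary and 0 cultured counts, and the Y-linked gene Uty had 11 and 20195. Of the other marker lists, summed levels in primary and then cultured cells were 3250 and 1233 CPM for mesenchymal fibroblasts, 299 and 1279 CPM for smooth muscle and pericytes, 187 and 38.2 CPM for Schwann cells, 123 and 402 CPM for cell division, 26.9 and 29.2 CPM for endothelium, 16.6 and 16.2 CPM for skeletal muscle, 8.95 and 0.182 CPM for mast cells, 8.06 and 3.21 CPM for epithelium, and 5.21 and 2.07 CPM for erythroid cells. A few abundant genes weigh most in these sums. Of the 10 fibroblast markers, 2 were at least 4-fold higher in culture (Col1a1 and Pdgfra) and 4 at least 4-fold lower. Acta2 went from 124 to 1227 CPM, while 4 of the 8 smooth muscle and pericyte markers were lower by any amount. Of the 8 endothelial markers, 4 were at least 4-fold lower and 0 higher, while Eng went from 11.7 to 18.0 CPM and Egfl7 from 4.26 to 10.1 CPM. In the cultured library the epithelial marker Krt14, the erythroid marker Hba-a1 and the mast cell markers Mcpt4, Tpsb2 and Fcer1a had no count. With 1 library per group, effects of culture, of animal and of library preparation cannot be told apart, no test was possible, and the 95% intervals below cover counting error only.

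Of the 9 genes, 5 were higher in culture by 4-fold or more, namely Ereg, Areg, Btc, Nrg1 and Egfr, and 1, Tgfa, was lower by 4-fold or more. Since each of the 9 reached 1 CPM in at least 1 library, these counts stand beside 12834 genes that did so, of which 12.6% passed that limit upwards and 7.48% downwards. Over genes that reached 10 CPM in a library the shares were 10.6% and 5.73%, and 6 of the 9 genes reached that level. The selection used this same contrast, so nothing is read from the counts. The median log2 ratio over these 9114 genes was 0.37, which is the level against which the ratios below should be set. Ranked from the highest log2 ratio among the 9114 genes, Ereg was in place 3, Nrg1 in place 114 and Egfr in place 299, whereas Hbegf was in place 4422, Errfi1 in place 8574 and Tgfa in place 8644.

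**Figure D1:**
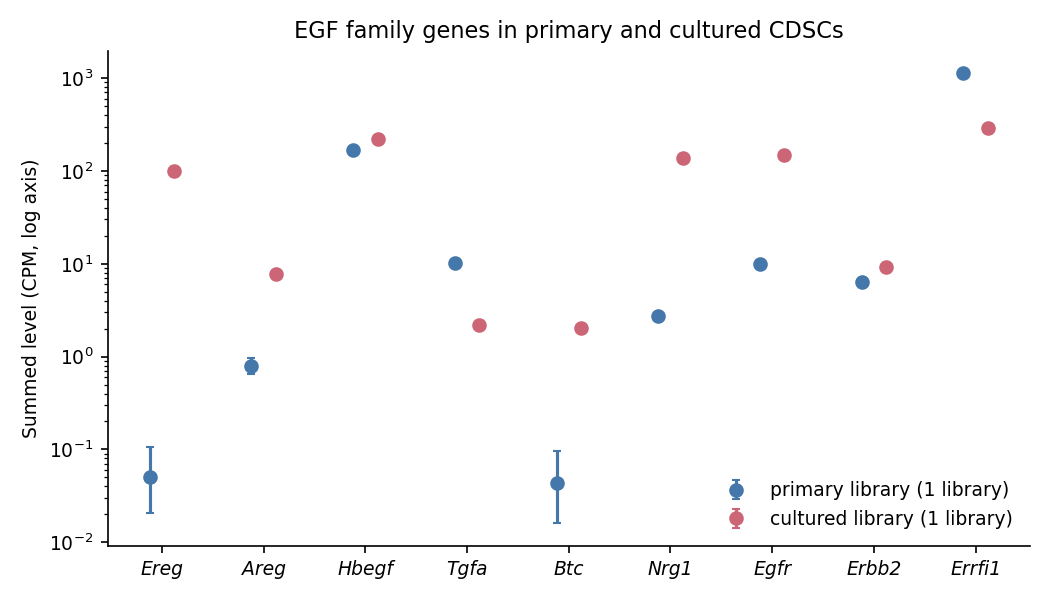
Summed level of each of the 9 genes in the primary (blue) and the cultured (red) library, in CPM on a log axis, with exact 95% Poisson intervals that are smaller than the point for most genes (1 library per group). Ereg rose from 0.0510 to 99.5 CPM, while Hbegf and Erbb2 lay close together in both libraries and Tgfa and Errfi1 were lower in culture.

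Ereg, Areg and Btc lie on chromosome 5 in a cluster with a further ligand gene, Epgn. In GRCm38 coordinates Ereg is at chr5:91074622-91093646, Areg at chr5:91139599-91148432 and Btc, on the opposite strand, at chr5:91357261-91402994. The span from the start of Epgn to the end of Btc is 375.5 kb, with gaps of 39.4 kb between Epgn and Ereg, 46.0 kb between Ereg and Areg, and 208.8 kb between Areg and Btc.

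Ereg had 7 UMIs in the primary library (0.0510 CPM, interval 0.0205 to 0.105) and 32851 UMIs in the cultured library (99.5 CPM, interval 98.4 to 100.6). Its log2 ratio of cultured over primary CPM was 10.93 (9.89 to 12.24). The primary UMIs came from 6 of 11746 cells, with at most 2 in a cell. All 6 cells belonged to chondrocyte-like clusters, as did 11457 of the 11746 cells. None of the 6 barcodes occurred among the kept cultured barcodes.

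Areg, which encodes amphiregulin, a ligand of EGFR alone, had 109 primary UMIs (0.795 CPM, 0.653 to 0.959) and 2553 cultured UMIs (7.73 CPM, 7.44 to 8.04), a log2 ratio of 3.28 (3.01 to 3.57). Btc, which encodes betacellulin, had 6 primary UMIs from 2 cells (0.0437 CPM) and 677 cultured UMIs (2.05 CPM), a log2 ratio of 5.55 (4.4 to 7.0). Epgn, the outermost gene of the cluster and the ligand epigen, had 6 and 24 UMIs (0.0437 and 0.0727 CPM, log2 ratio 0.73). The cultured levels of the 4 neighbouring ligand genes ran from 0.0727 CPM for Epgn to 99.5 CPM for Ereg.

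RefSeq promoter windows in GRCm38.p6 were matched for 6 of the 9 genes, with a pair of starts for Errfi1. Ereg, Hbegf and Nrg1 had no matched window, so their promoters were not searched. The cyclic AMP response element TGACGTCA, a palindrome that reads the same on both strands, occurred within the 250 bases before the start in 2 of the 7 windows, those of Areg and of 1 Errfi1 start, against 1.55% of 32851 windows genome-wide. Both windows also held TATAAA on either strand, which 12.4% of windows did, and the AP-1 motif TGACTCA, searched on both strands, was in none of the 7 against 4.46% of all windows. These 2 windows are shown because they hold the element, and which Errfi1 start was in use was not measured. Areg was higher and Errfi1 lower in culture, and any part of the element in this was not tested. The Areg window is chr5:91139349-91139598 on the plus strand, with the element (capitals) beginning 61 bases before the start, and the Errfi1 window is chr4:150854820-150855069 on the plus strand, with the element beginning 51 bases before the start, in an intron of a longer Errfi1 transcript.
Areg: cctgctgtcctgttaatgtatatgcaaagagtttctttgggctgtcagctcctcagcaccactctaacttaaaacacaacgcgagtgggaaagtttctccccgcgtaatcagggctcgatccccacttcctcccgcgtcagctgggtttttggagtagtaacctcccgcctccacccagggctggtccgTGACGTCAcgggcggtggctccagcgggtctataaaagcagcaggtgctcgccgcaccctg
Errfi1: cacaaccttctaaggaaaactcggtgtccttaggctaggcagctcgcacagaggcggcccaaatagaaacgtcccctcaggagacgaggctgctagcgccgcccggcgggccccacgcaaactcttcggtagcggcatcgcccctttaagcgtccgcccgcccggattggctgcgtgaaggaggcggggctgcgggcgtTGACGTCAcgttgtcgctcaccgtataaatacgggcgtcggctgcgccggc
Both windows are descriptions of sequence, and binding to them was not measured.

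The 3 remaining ligand genes lie on other chromosomes and behaved differently from each other. Nrg1 (chr8:31814551-32884029), the neuregulin that binds ERBB3 and ERBB4, had 371 primary UMIs (2.71 CPM) and 45770 cultured UMIs (139 CPM), a log2 ratio of 5.68 (5.53 to 5.83). Tgfa (chr6:86195223-86275719), the ligand TGF-alpha, had 1386 primary UMIs (10.1 CPM) and 727 cultured UMIs (2.20 CPM), a log2 ratio of -2.20 (-2.33 to -2.07). Hbegf (chr18:36504927-36515805), the heparin-binding ligand, had 22990 and 73564 UMIs (168 and 223 CPM), and its log2 ratio of 0.41 (0.39 to 0.43) was next to the median of 0.37 over the 9114 genes. The most abundant ligand transcript of the 6 was therefore that of Hbegf in both libraries, on the CPM scale of 3-prime counts in which each captured transcript counts once, followed in culture by Nrg1 and Ereg and in the primary library by Tgfa and Nrg1.

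The 5 remaining ligand genes of the family were low in both libraries. Egf was at 1.52 and 1.81 CPM, Nrg2 at 0.729 and 0.833 CPM, Nrg4 at 0.416 and 0.412 CPM and Nrg3 at 0.284 and 0.0939 CPM, primary before cultured. None of these, nor Epgn, was past 4-fold, and their median log2 ratio was 0.19.

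Among the receptors, Egfr (chr11:16752203-16918158) had 1348 primary UMIs (9.83 CPM, 9.31 to 10.4) and 48989 cultured UMIs (148 CPM, 147.1 to 149.7), a log2 ratio of 3.92 (3.8 to 4.0). Erbb2 (chr11:98412470-98437716), the partner receptor without a ligand of its own, had 883 and 3078 UMIs (6.44 and 9.32 CPM), a log2 ratio of 0.53 (0.43 to 0.64). The receptors that bind NRG1 went the other way: Erbb4 fell from 8.68 to 0.473 CPM, a log2 ratio of -4.20, and Erbb3 from 0.933 to 0.142 CPM, a log2 ratio of -2.71. Thus the primary library held Egfr, Erbb4 and Erbb2 at like levels, between 6.44 and 9.83 CPM, whereas in the cultured library Egfr was at 148 CPM beside 9.32 CPM of Erbb2 and less than 1 CPM each of Erbb3 and Erbb4.

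Within the primary library, Egfr was concentrated in a small group of cells. Clusters had been made with the 9 genes left out. Of the 10 primary clusters, 9 with 11457 cells had 10 to 12 chondrocyte markers at 1000 CPM or more and were enriched for no other class, so they were called chondrocyte-like, and their Egfr levels ran from 1.14 to 10.9 CPM. The remaining cluster 8 of 289 cells also had 8 chondrocyte markers at that level but was enriched for fibroblast, endothelial and mast cell markers and led by Col1a1 and Postn. It held 220 CPM (203 to 239), which was 38.4-fold (34.4 to 42.9) above the chondrocyte-like clusters together at 5.73 CPM. These 289 cells contributed 42.8% of the primary Egfr UMIs. When cluster 8 was clustered again, 185 cells in 4 groups were named mesenchymal fibroblast-like and held 224 CPM of Egfr (202 to 248.7). One of these groups, with 52 cells and 10 abundant chondrocyte markers, was at 90.8 CPM, and the other 3, with 133 cells, were at 388 CPM together (344 to 436). A group of 42 cells led by Chodl, Cilp and Thbs4, which was enriched for 6 fibroblast markers but had none among its 10 leading genes and so stayed unnamed, held 666 CPM (551 to 798), and a group of 26 cells led by Fabp4 and Cma1 held 13.6 CPM (3.72 to 34.9). The remaining group, 36 cells led by Rgs5, held 174 CPM (140 to 213). It was enriched for 5 smooth muscle and pericyte markers and 3 fibroblast markers. The cultured library, at 148 CPM, was therefore 25.9-fold above the primary chondrocyte-like clusters and at 0.661 times the level of the primary fibroblast-like cells, or 0.383 times without the group of 52 cells and 0.555 times with the unnamed group added, choices made after the values were seen. With only chondrocyte-like primary clusters and no macrophage-like cultured cluster, the Egfr log2 ratio was 4.70, and it was the one among the 9 genes that moved by over 1.5 times in that setting.

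Nrg1 shared part of this distribution, at 2.30 CPM in chondrocyte-like clusters of the primary library, 23.7 CPM in cluster 8 and 38.2 CPM (29.3 to 49.0) in its fibroblast-like cells. All 62 Nrg1 UMIs of cluster 8 came from those fibroblast-like cells, over which the cultured library was 3.63-fold higher. Ereg and Btc had no UMI in cluster 8, which at its depth allows up to 1.41 CPM. Their levels in the chondrocyte-like clusters, 0.0520 and 0.0446 CPM, lay below that bound, so cluster 8 cannot show whether they shared this distribution. Erbb2 was at 8.4 CPM in cluster 8 against 6.4 CPM in the chondrocyte-like clusters, with overlapping intervals (5.26 to 12.7 and 5.98 to 6.84).

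**Figure D2:**
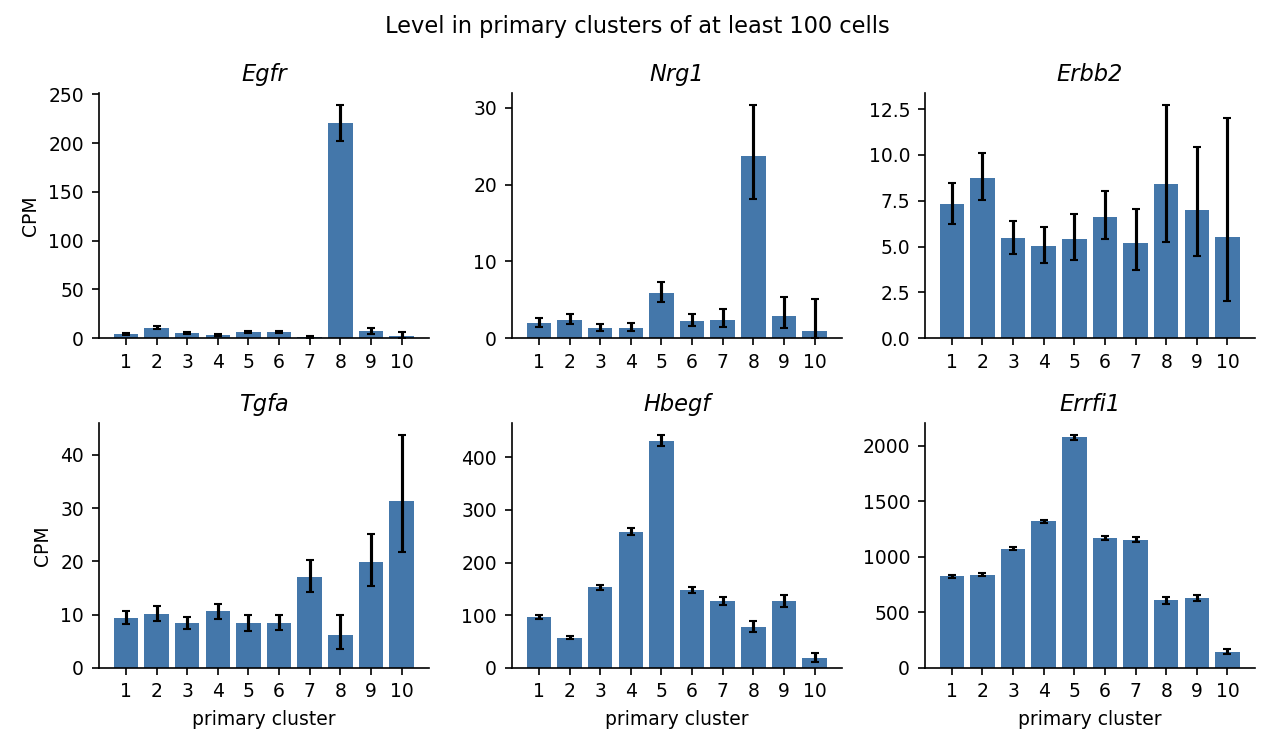
Level of 6 genes in the 10 primary clusters (CPM, linear axes that differ between panels, bars with exact 95% Poisson intervals, 1 library). Egfr and Nrg1 were highest in cluster 8 (220 and 23.7 CPM), Hbegf and Errfi1 in cluster 5 (432 and 2075 CPM), and Tgfa in cluster 10 (31.3 CPM).

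Hbegf and Errfi1 were instead highest in the same chondrocyte-like cluster. In cluster 5, with Ptgs2 among its leading genes, Hbegf was at 432 CPM and Errfi1 at 2075 CPM, and in cluster 10, led by Pknox2 and Jazf1, they were at 18.4 and 143 CPM, the lowest level of both genes. Over the 10 primary clusters the Pearson r of their log2(CPM + 1) levels was 0.92, a description of clusters that share 1 library. Tgfa had another order, with 31.3 CPM (21.7 to 43.8) in cluster 10, 19.8 CPM in the dividing cluster 9 and 17.0 CPM in cluster 7 led by Slc35f1 and Runx3, and 6.11 to 10.6 CPM in the other 7 clusters. The intervals of clusters 10 and 9 overlapped, as did those of clusters 9 and 7.

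Errfi1 (chr4:150853919-150868892) was the most abundant of the 9 genes in both libraries, with 153942 primary UMIs (1122 CPM) and 96578 cultured UMIs (293 CPM). Its log2 ratio of -1.94 (-1.95 to -1.93) was short of the 4-fold limit, at 3.84-fold lower, and passed it only with TMM scaling, which lowered the median over all genes by 0.21 and gave Errfi1 a log2 ratio of -2.14. The immediate early genes, which growth factors induce and which are also known to be induced when tissue is digested, moved with it. Each of the 11 on the list was lower in culture by over 4-fold, and their summed level went from 19941 to 2046 CPM. Fos went from 5378 to 308 CPM and Atf3 from 1189 to 23.0 CPM. Over clusters, Errfi1 and the summed immediate early level had r = 0.88 in the primary library (10 clusters) and r = 0.92 in the cultured library (8 clusters), and Hbegf had r = 0.73 and r = 0.15 with that sum. Without the cultured cluster of low UMI counts the value for Hbegf in culture turned to r = -0.39, and that for Errfi1 was r = 0.89. In the primary library cluster 10 stood apart, at 143 CPM of Errfi1 and 5052 CPM of the immediate early sum. The other primary clusters were at 608 to 2075 CPM and 13557 to 23623 CPM. The primary r values rest in part on cluster 10, and r without it was not computed. The part of the immediate early genes in the levels of Errfi1 and Hbegf was not tested.

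Subsequently, the share of cells with a transcript was compared after each cell had been thinned to 5000 UMIs, which left 10959 primary and 4543 cultured cells and left out 787 and 795 shallower cells. Ereg was found in 5 primary cells (0.0456%, 0.0148% to 0.106%) and in 1360 cultured cells (29.9%, 28.6% to 31.3%). Without thinning the shares were 0.0511% and 67.0%. Egfr went from 3.15% to 46.5% of cells and Nrg1 from 0.949% to 35.7%. Areg went from 0.411% to 3.08% and Btc from 0.0182% to 1.06%. Without thinning, Areg was in 13.7% and Btc in 7.51% of cultured cells.

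The remaining genes, Hbegf, Errfi1, Erbb2 and Tgfa, gave another picture of how transcripts were spread over cells. Hbegf was in 31.3% of primary and 57.4% of cultured cells at equal depth, although the mean was 0.785 and 1.10 UMIs per cell, since the 10% of primary cells with the most Hbegf held 63.6% of its UMIs and the like cells in culture 36.5%. Errfi1 went from 78.9% to 65.4% of cells, and its mean from 5.55 to 1.67 UMIs per cell. Erbb2 was in 3.15% and 4.53% of cells, and its variance over the mean was 1.01 and 1.02, close to the value of 1 that counting alone gives. Tgfa was in 4.49% and 1.30% of cells at equal depth, but in 9.13% and 10.9% without thinning, when the cultured cells were deeper.

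**Figure D3:**
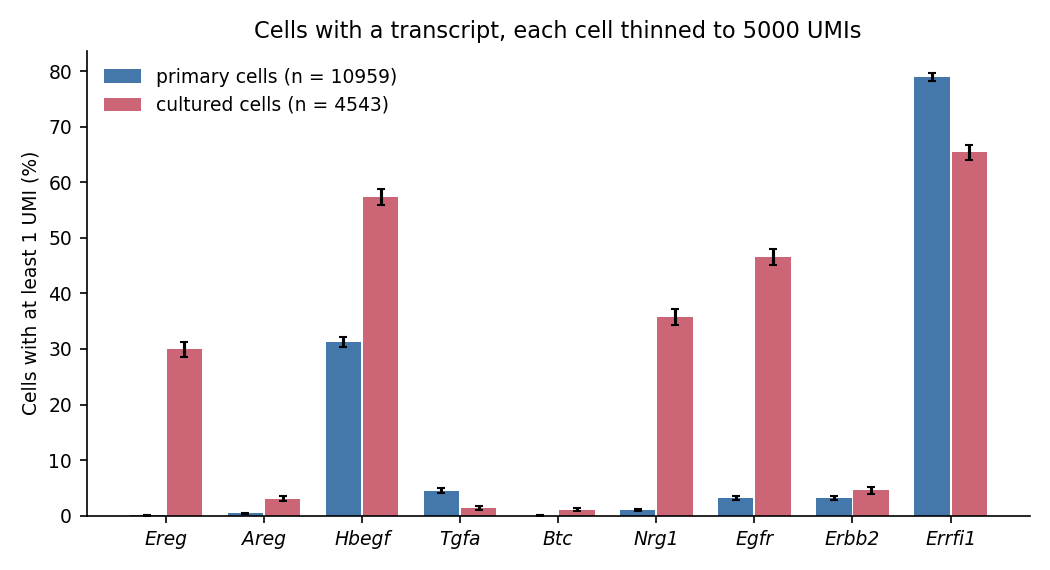
Cells in which each gene had 1 UMI or more (%, bars from 0, exact 95% binomial intervals) after thinning each cell to 5000 UMIs, in 10959 primary (blue) and 4543 cultured (red) cells of 1 library each. Ereg, Nrg1 and Egfr were in 29.9%, 35.7% and 46.5% of cultured cells and in fewer than 4% of primary cells.

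Free RNA in the droplets can place UMIs in cells that do not make a transcript, and its part was not tested. The only cultured cluster that could be named was a macrophage-like one of 9 cells (median 35946 UMIs), in which all 9 macrophage markers were enriched. Ereg was at 9.87 CPM there (4 UMIs, 2.69 to 25.3), below the 99.5 CPM of the whole library, and 1 of the 9 cells had an Ereg UMI at 5000 UMIs (11.1%, 0.281% to 48.2%). Egfr was at 34.5 CPM there (18.9 to 57.9), also below the library. Nrg1 was at 126 CPM (93.7 to 165), within counting error of the library's 139 CPM. The summed macrophage markers went from 7.25 to 31.1 CPM, and without the macrophage-like cells, and with chondrocyte-like primary clusters only, the Ereg log2 ratio was 10.90.

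In cultured cells, Ereg transcripts were spread unevenly. At 5000 UMIs the variance of Ereg over its mean was 1.97, the 10% of cells with the most Ereg held 57.2% of its UMIs, and the most in a cell was 15. Nrg1 and Errfi1 were more uneven, with a variance over the mean of 2.59 and 2.56, while Egfr was at 1.74 and Hbegf at 1.62. Egfr was found in 53.1% (50.4% to 55.8%) of the 1360 cells with Ereg and in 43.7% (41.9% to 45.4%) of the 3183 cells without it, and 15.9% of cells had both at this depth. Areg was in 4.19% and 2.61% of these cells, with overlapping intervals, and Nrg1 in 34.5% and 36.2%. These shares describe cells of 1 library and differ between clusters, as follows.

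Over the 8 cultured clusters of at least 100 cells, Ereg ranged from 40.2 to 216 CPM. Cluster 8, with 182 cells led by Ptn and also marked by the contractile genes Cnn1 and Actg2, had the highest level at 216 CPM (208 to 224), above each other cluster. Clusters 6 and 7, led by Mmp13 and by Nr5a2, followed at 114 and 111 CPM with overlapping intervals, and clusters 1 and 2, led by Lmo7 and by Angptl7, stood at 104 and 101 CPM, also with overlapping intervals. The dividing cluster 4, led by Mki67, was at 83.1 CPM and cluster 5, led by Ndufa4l2 and Slpi, at 62.8 CPM. The lowest level, 40.2 CPM (32.3 to 49.3), was in cluster 3, whose 764 cells had a median of only 1221.5 UMIs. With 30 principal components the range was 19.1 to 208 CPM, so the lowest level depended on how cells were grouped.

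The neighbouring gene Areg had another order. It was highest in the dividing cluster 4 at 11.8 CPM (10.9 to 12.7) and in cluster 1 at 10.3 CPM (9.59 to 11.0), with intervals that just overlapped, and it was at 2.52 CPM in the Ereg-high cluster 8 and 1.67 CPM in cluster 6. Over the 8 clusters Ereg and Areg had r = -0.30, and r = -0.58 without the cluster of low UMI counts. Btc was highest in the same cluster as Ereg, at 8.35 CPM (6.83 to 10.1) in cluster 8, with an interval that overlapped that of the shallow cluster 3 (2.12 to 8.11).

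Nrg1 peaked elsewhere, at 320 CPM (313 to 327) in cluster 7 and 200.3 CPM in cluster 1, and was at 67.9 CPM in cluster 8. Hbegf was also highest in cluster 7, at 320 CPM. Egfr was highest in cluster 1 at 211 CPM (208 to 214) and cluster 6 at 203 CPM (197 to 208), with overlapping intervals, and lowest in cluster 5 at 57.3 CPM. Errfi1 was highest in the same pair, at 526 CPM in cluster 6 and 423 CPM in cluster 1, and over the 8 clusters it had r = 0.91 with Egfr. Tgfa was highest in cluster 6 at 4.46 CPM (3.68 to 5.35), next to cluster 7 at 3.16 CPM with an overlapping interval (2.51 to 3.94). No single cultured cluster was thus highest for the ligands together: Ereg and Btc led in cluster 8, Nrg1 and Hbegf in cluster 7, Areg in cluster 4 and Tgfa in cluster 6.

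**Figure D4:**
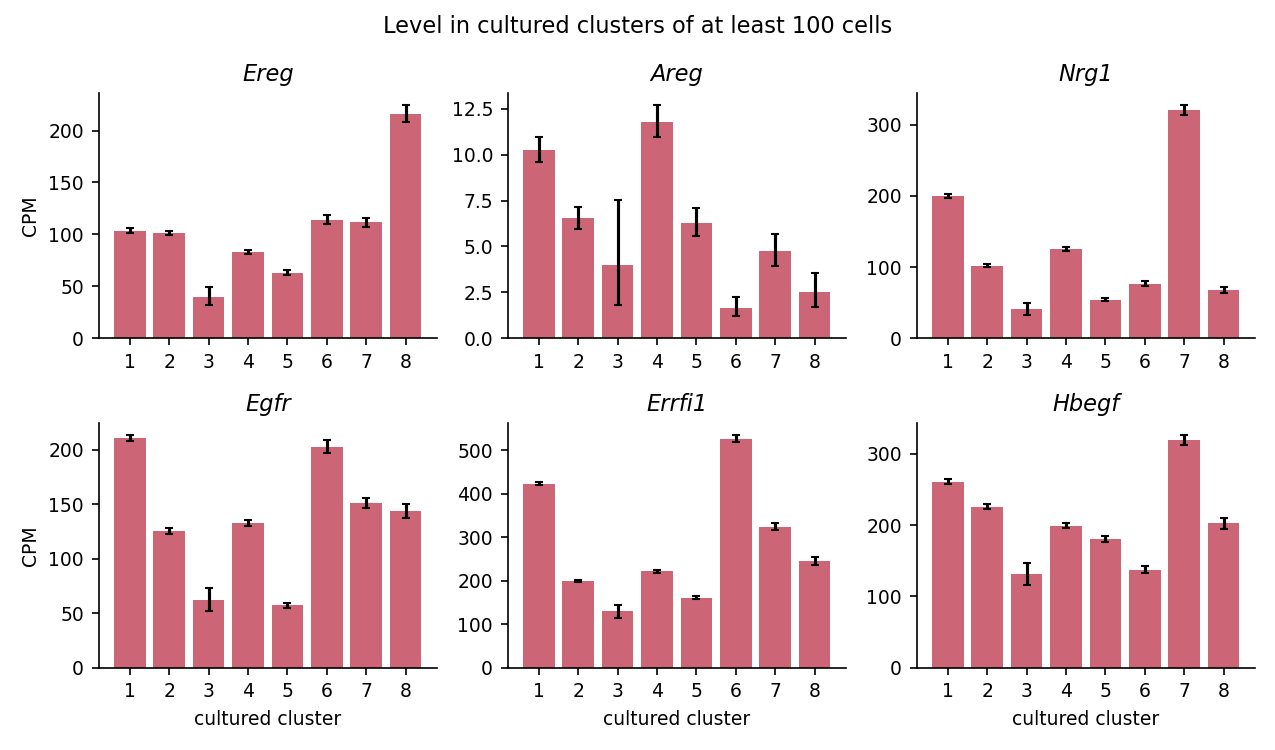
Level of 6 genes in the 8 cultured clusters of at least 100 cells (CPM, linear axes that differ between panels, bars with exact 95% Poisson intervals, 1 library). Ereg was highest in cluster 8 (216 CPM), Areg in cluster 4 (11.8 CPM), Nrg1 and Hbegf in cluster 7 (320 CPM each), and Egfr and Errfi1 in clusters 1 and 6.

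The genes whose level over the 8 cultured clusters was most like that of Ereg were ranked among 3475 genes with at least 50 CPM in culture. They were Mmp14, a membrane metalloproteinase (r = 0.98), Glipr2 (r = 0.96), Plpp3, a lipid phosphatase (r = 0.96), Slc24a3, a sodium-calcium exchanger (r = 0.93), and Mcc (r = 0.93). All 5 were highest in cluster 8 and lowest in cluster 3, and Mmp14 ran from 113 to 201 CPM. When cluster 3 with its low UMI counts was left out, which was decided once the values had been seen, Mmp14 and Glipr2 stayed among the first 5, and Daam1, Gng12 and Inhba took the other places. These r values rest on 7 or 8 clusters of 1 library, chosen as the highest of 3475.

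Finally, the other genes of the pathway were counted from lists of 45 genes. In culture 1 of them was past 4-fold higher and 3 were past 4-fold lower, with a median log2 ratio of 0.22. Of the 45, 40 reached 1 CPM in a library, with 1 past the upper and 2 past the lower limit, against 12.6% and 7.48% of the 12834 genes that did so. At 10 CPM it was 1 and 1 of 35, against 10.6% and 5.73% of the 9114 genes. The 3 lower genes were the receptors Erbb3 and Erbb4 and the ERK target Myc, a growth-related transcription factor, which went from 140 to 24.9 CPM (log2 ratio -2.49). The higher gene was Spry1, an inhibitor of receptor tyrosine kinase signalling, from 4.11 to 17.6 CPM (log2 ratio 2.10), which was under 4-fold with TMM scaling and with each cell weighing the same.

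None of the 4 genes of ligand shedding (median log2 ratio 0.43), the 6 of receptor turnover and inhibition (0.88) or the 14 of the RAS-ERK cascade (0.46) was past 4-fold, although 1 turnover gene, Cblb, named after its values were seen, passed the limit with 2 of the 3 other scalings. Among the sheddases, ADAM10 and ADAM17 transcripts were both present, with Adam10 at 27.7 and 79.4 CPM and Adam17 at 25.0 and 35.2 CPM, values that were also chosen after they were seen. Of the 14 genes of ERK feedback and targets, 1 was past 4-fold in each direction and 11 had a lower CPM in culture by any amount under each of the 4 scalings, with a median log2 ratio of -0.93. By any amount, 36.5% of the 12834 genes that reached 1 CPM were lower, and their median was 0.36. The part of the lower immediate early genes given above was not tested.

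**Figure D5:**
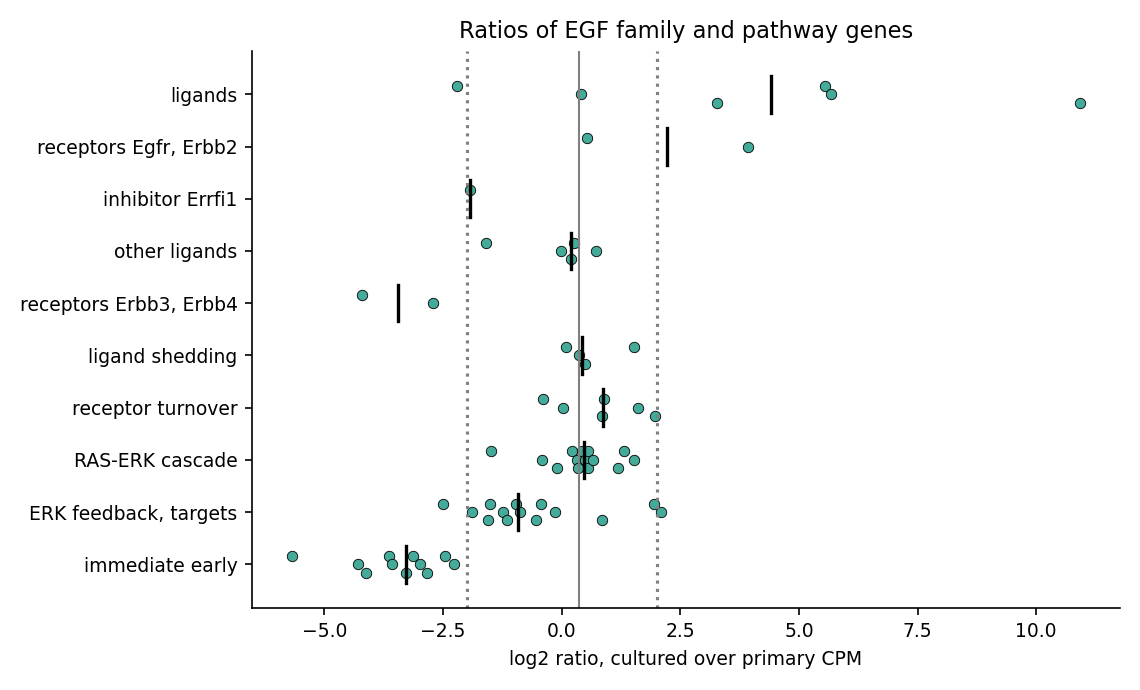
Log2 ratio of cultured over primary CPM for each gene of the EGF family and pathway lists (1 point per gene, black bars at list medians, grey line at the median of 0.37 over genes that reached 10 CPM, dotted lines at 4-fold, 1 library per group). The points of the RAS-ERK cascade lie within 4-fold, while the 11 immediate early genes lie below the lower dotted line and Ereg is at 10.93.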

How the data were processed

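Per the labels, the authors used Cell Ranger 7.0.0 on libraries of the Chromium 3-prime v3.1 kit, for which 20000 viable cells were prepared. The deposited files held UMI counts for each gene and barcode as whole numbers, with no normalisation applied. Reads had been aligned to mm10/GRCm38 per the study's methods. The labels also list GRCm39, and the annotation release was not given in the sources used here. Gene coordinates were taken from GENCODE M21 (GRCm38) by gene identifier, and promoters from RefSeq.

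The counts of kept cells were added up within a library and divided by the library total (137148874 primary and 330129909 cultured UMIs) to give CPM. In a ratio a count below 3 was set to 3, and genes with at most 3 counts in both libraries got no ratio. A count of 3 was 0.0219 CPM (primary) and 0.00909 CPM (cultured). Intervals were exact Poisson for counts, conditional binomial for ratios and Clopper-Pearson for shares, at 95% (scipy 1.17.1). Each library was clustered alone in scanpy 1.11.5 (Leiden, resolution 0.5, 20 neighbours, 10 principal components of 2000 variable genes). A cluster was named from 3 or more listed markers that reached 50 CPM and were 4-fold above the rest of the library, with at least 1 of them among its 10 leading genes and no second class with 3. Where no class had 3, a cluster with 3 or more chondrocyte markers at 1000 CPM was called chondrocyte-like. Doublets were kept, since Scrublet called 0 primary and 1 cultured cell and had not worked. As an alternative the top 1118 and 461 cells by score were removed, at 0.8% per 1000 deposited barcodes. TMM factors came from edgeR 4.0.16. No test was run, since each group was 1 library. The ratio and thinning steps were tested on simulated counts.

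The 9 genes and all lists were chosen with earlier results of these data known. Genes were named by rule: the 9 genes, other ligands and receptors of the family, pathway list genes past 4-fold with at least 10 CPM, and the 5 genes most like Ereg over cultured clusters of at least 100 cells. Endothelial, pericyte, mast cell, epithelial, erythroid, muscle and Schwann lists served to name clusters. The cell division list was not part of that naming and gave a summed level only.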

Additional observations from a re-analysis of the deposited data

Results flagged for a closer look

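Ereg was also present in the cultured barcodes that failed the cell filter, which no comparison above used. These 5460 barcodes, of which 5336 had under 1000 UMIs, had a median of 775 UMIs and held 744 Ereg UMIs (118 CPM, interval 110 to 127), whereas the 150 failed primary barcodes held 0. Their Egfr was at 284 CPM, Nrg1 at 217 CPM and Errfi1 at 344 CPM, each above the 148, 139 and 293 CPM of the kept cultured cells, while Hbegf was lower at 202 CPM against 223 CPM. The kept cultured barcodes under 5000 UMIs held Ereg at 71.6 CPM (57.3 to 88.3). The median mitochondrial share of the failed cultured barcodes was 0.406% of UMIs, and what they contained was not tested.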

How the results depend on the processing

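The Ereg log2 ratio was between 10.61 and 10.99 under all 8 alternatives of cell filter, doublets, scaling, weighting and cluster choice, and 5 genes remained at least 4-fold higher under each. The count of genes at least 4-fold lower rose from 1 to 2 with TMM scaling and with a fold of 2, by Errfi1. The background was 27.2% higher and 12.5% lower at a fold of 2, and 11.2% lower with no minimum. The share of cultured cells with an Ereg UMI followed the depth of thinning, at 17.8% for 2500 UMIs, 43.1% for 10000 UMIs and 67.0% without thinning, and the primary share was 0.00864% at 2500 UMIs. The highest Ereg level in a cultured cluster was 208 CPM with 30 principal components. With TMM scaling, the pathway genes past 4-fold were 0 higher and 4 lower, and without mitochondrial and ribosomal protein genes in the total they were 2 higher. No log2 ratio past 4-fold changed sign. No paired analysis was possible because each group was 1 library, and for the same reason no replicate could be left out. Differences between animals and preparations could not be estimated, and genes with few UMIs, such as Ereg and Btc in the primary library, have wide intervals.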
